A study of Mus musculus with 25 samples.

Results

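The secreted antagonists of bone morphogenetic proteins (BMPs) examined here were Grem1, Nog, Chrd, Chrdl1, Bmper, Twsg1 and Sostdc1. These 7 genes were taken by their symbols from the 37406 genes of the expression table. The libraries were RNA-seq of laser capture microdissected palatal shelves from wild type CD-1 mouse embryos at E14.5, with no treatment or mutation in any group. The anterior and the posterior palate were each captured as medial and lateral compartments and, separately, as oral and nasal compartments, so that the medial-lateral and oral-nasal captures are overlapping divisions of the same tissue. There were 25 libraries of 8 compartments, with 3 biological replicates each and 4 for anterior nasal. A compartment holds mixed cells, and fewer cells of a type cannot be told apart from less RNA per cell.

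BMPs are secreted ligands that bind type I and type II receptor kinases on the cell surface, which phosphorylate Smad1, Smad5 and Smad9, and these enter the nucleus with Smad4 to switch on genes such as Id1 and Msx1. Secreted antagonists bind the ligands outside the cell and keep them from their receptors. In the palatal shelf, BMP signaling takes part in mesenchymal growth and in the formation of palatal bone, and mice without noggin have cleft palate. Noggin (Nog) covers both receptor binding faces of the ligand. Chordin (Chrd) and chordin-like 1 (Chrdl1) bind ligands through cysteine-rich repeats, and the tolloid proteases cut chordin to set the ligand free. Twisted gastrulation (Twsg1) joins the chordin-ligand complex, and Bmper, the mouse relative of fly crossveinless 2, binds both ligand and chordin and can act for or against signaling. Gremlin 1 (Grem1) and sclerostin domain containing 1 (Sostdc1, also called ectodin) are cystine knot proteins of the DAN group, and Sostdc1 also binds the Wnt co-receptors.

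Values were reads per kilobase of exon per M mapped reads (RPKM, with M for mega), which is a level per length and so can be compared between genes. The depth implied by the smallest steps between values ran from 1.64 to 6.56 M reads, and its median over the libraries was 3.27 M reads. At the median depth 1 read was worth 0.159 RPKM for Nog and 0.0452 RPKM for Chrdl1. Correlations between replicates of log2 values over 11913 genes ranged from 0.612 in posterior medial to 0.932 in anterior medial. Posterior medial replicate 2 detected 12935 genes, against 16330 to 20605 in every other library. Lateral and medial libraries of the same position (anterior or posterior) were never sequenced in the same run, so run and compartment cannot be told apart in those comparisons, whereas oral and nasal libraries shared runs. Markers of palate mesenchyme were present in all libraries, with a summed level of at least 596 RPKM over 7 genes, and no epithelial marker was at 0 throughout a compartment.

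By the table's coordinates, which are on the mm9 build, Grem1 lay at chr2:113588832-113598805 and Sostdc1 at chr12:37040756-37045039. Nog lay at chr11:89161952-89163873, Chrd at chr16:20733200-20742457 and Chrdl1 at chrX:139720217-139828805. Bmper spanned chr9:23027520-23289646 and Twsg1 chr17:66271312-66300527. Promoter sequences were matched by symbol to a RefSeq table on GRCm38.p6, which gave 4 of the 7 genes. The 250 bases before the start of Grem1 (minus strand, chr2:113758649-113758898) and of Bmper (plus strand, chr9:23222826-23223075) are printed because these 2 genes lay on opposite sides of the posterior oral and nasal palate. They are written 5′ to 3′ on the gene's strand, and capitals mark matches on either strand to GGCGCC, a GC-rich element bound by Smad1 and Smad5, or to CCAAT.
Grem1: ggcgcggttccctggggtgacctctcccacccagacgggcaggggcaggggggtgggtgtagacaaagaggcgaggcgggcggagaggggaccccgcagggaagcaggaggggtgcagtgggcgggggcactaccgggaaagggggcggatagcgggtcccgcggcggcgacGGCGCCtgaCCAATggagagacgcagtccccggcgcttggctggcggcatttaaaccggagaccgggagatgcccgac
Bmper: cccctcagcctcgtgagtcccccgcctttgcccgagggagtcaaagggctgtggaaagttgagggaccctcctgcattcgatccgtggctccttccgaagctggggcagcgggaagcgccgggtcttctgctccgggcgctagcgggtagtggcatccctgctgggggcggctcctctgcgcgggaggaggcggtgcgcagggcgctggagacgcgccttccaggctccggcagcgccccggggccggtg
The Grem1 window held 1 match to GGCGCC and 1 to CCAAT, and the Bmper window held neither. Among 27025 promoter windows of the same length, 9.54% held GGCGCC and 34.5% held CCAAT. The third motif searched, the TATA box TATAAA, was in 13% of windows, but in neither of the printed sequences. GC content was 72% for Grem1 and 71.6% for Bmper, against a median of 52% over all windows, and each window held 24 CpG dinucleotides against a median of 6. The Chrd window (plus strand, chr16:20732877-20733126) also held 1 match to GGCGCC, and the Twsg1 window (minus strand, chr17:65951188-65951437) held none of the 3 motifs.

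The 7 antagonists covered a wide range of levels. Twsg1 was the most abundant, with a mean of 63.1 RPKM over 25 libraries, above 96.8% of the 22399 genes detected. Sostdc1 followed at 26.8 RPKM and Grem1 at 14 RPKM. Chrdl1 averaged 7.46, Bmper 4.16 and Chrd 2.93 RPKM. Nog was the lowest at 0.559 RPKM and was listed at 0 in 10 of 25 libraries. Relative spread was smallest for Twsg1 and largest for Nog. The coefficient of variation over the libraries was 14.9% for Twsg1, 40.7% for Chrd, 58.1% for Sostdc1, 84.9% for Bmper, 90.2% for Grem1, 115% for Chrdl1 and 173% for Nog.

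**Figure D1:**
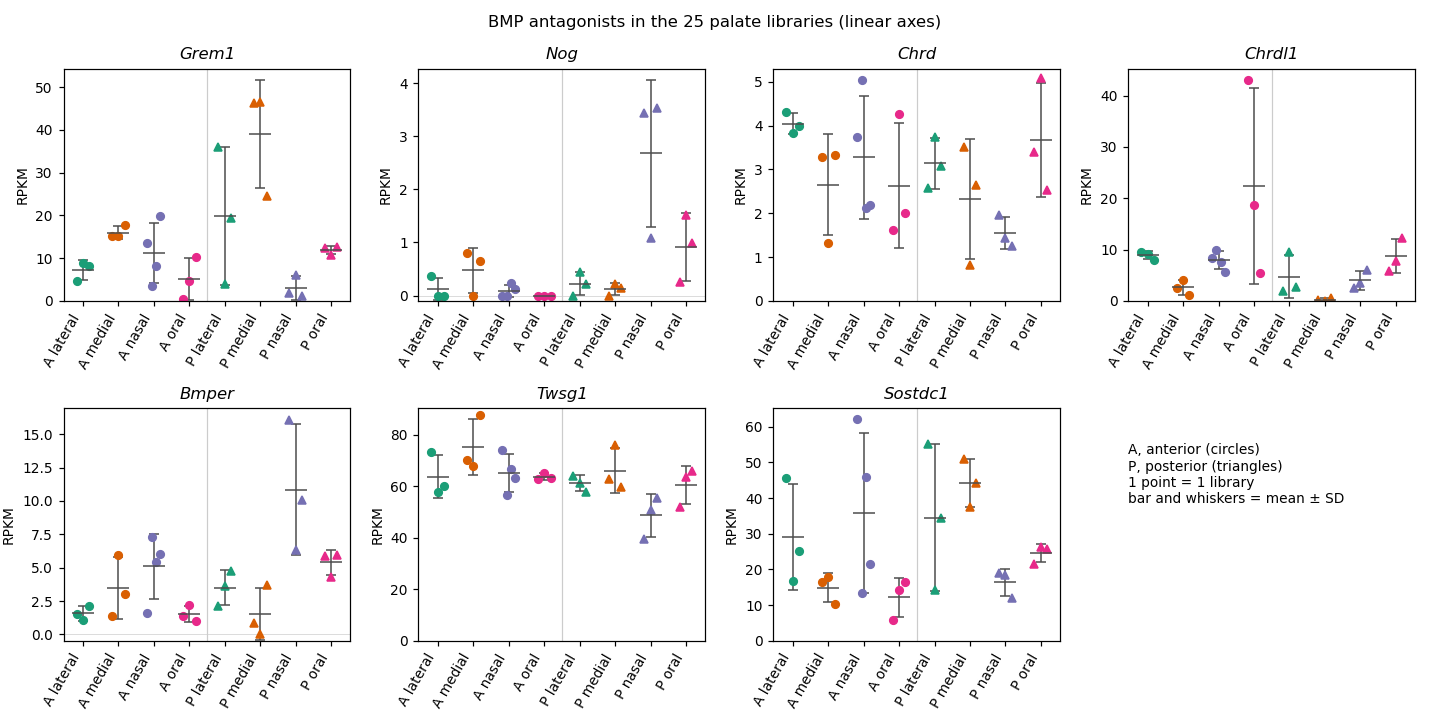
RPKM (linear axes) of each antagonist in the 25 libraries, grouped by compartment, with circles for anterior and triangles for posterior libraries and a bar with whiskers for the mean ± SD. Nog was highest in posterior nasal, Grem1 in posterior medial and Chrdl1 in anterior oral, while Twsg1 stayed between 39.4 and 87.7 RPKM.

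A pair of the genes passed a test of variation over the 8 compartments, limma's F test on log2(RPKM + 0.1) with Benjamini-Hochberg adjustment over 11932 genes. These were Chrdl1 (F = 13.7, adjusted p = 3.69e-04) and Nog (F = 6.46, adjusted p = 0.0168), that is 2 of 7 members against 4.42% of all genes tested. The limma adjusted p was 0.104 for Grem1, 0.117 for Bmper, 0.277 for Sostdc1, 0.621 for Twsg1 and 0.710 for Chrd. The Nog result rested on the posterior nasal libraries, with an adjusted p of 0.0883 without replicate 1 and 0.0917 without replicate 3 of that compartment. The Grem1 adjusted p fell to 0.0393 without posterior lateral replicate 2 and to 0.0346 without anterior oral replicate 3. It rose to 0.255 without posterior nasal replicate 3. Bmper reached an adjusted p of 0.0413 without posterior medial replicate 2 and 0.00688 without posterior medial replicate 3. Without posterior nasal replicate 1 the Bmper adjusted p was 0.286. With sequencing run in the model the adjusted p was 0.076 for Chrdl1 and 0.286 for Nog. The Nog adjusted p was also 0.341 after quantile normalization, 0.143 with a pseudocount of 0.01 and 0.269 with a mean-variance trend.

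Nog was highest in posterior nasal and then in posterior oral. Its values were whole reads of an unspliced gene. Posterior nasal replicates held 40, 8 and 17 reads (3.43, 1.08 and 3.53 RPKM), and posterior oral replicates held 3, 10 and 7 reads (0.25, 1.52 and 0.988 RPKM). Anterior medial followed with 5, 0 and 4 reads. The other 5 compartments held 0 to 2 reads in each library, and all 3 anterior oral libraries held 0. Posterior nasal thus stood above the 5 low compartments in every library, but its lowest library (1.08 RPKM) lay within the range of posterior oral. The neighbours in the order of compartment means overlapped throughout.

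Pooled over replicates, Nog came to 5.23 reads per M in posterior nasal (65 reads, 95% exact Poisson interval 4.04 to 6.67) and 1.5 in posterior oral (20 reads, 0.914 to 2.31). In anterior nasal it came to 0.171 reads per M (2 reads, 0.0207 to 0.618). The ratio of posterior to anterior nasal was 30.7 (95% interval 8.15 to 259), and posterior oral was at least 4.31-fold higher than anterior oral, the lower end of the exact 95% interval (5.82-fold against 3 reads over the group). The 0 of 11.7 M anterior oral reads allows up to 0.316 reads per M by the exact interval, or 0.257 by 3 reads. These intervals cover counting error only and leave out the spread between replicates.

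Bmper shared its highest compartment with Nog. Posterior nasal replicates gave 16.1, 6.35 and 10.1 RPKM (10.9 ± 4.93, SD, n = 3), and posterior oral gave 5.91, 4.33 and 5.98 RPKM (5.41 ± 0.934). These are the only neighbours in its order that did not overlap. Anterior nasal followed at 5.10 RPKM (1.6, 7.29, 5.45 and 6.05), then posterior lateral at 3.51 and anterior medial at 3.45 RPKM. Anterior lateral, anterior oral and posterior medial lay together at 1.58, 1.54 and 1.52 RPKM, and posterior medial replicate 2 was at 0. The nasal libraries were therefore high in the anterior and the posterior palate except for anterior nasal replicate 1.

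The osteoblast markers had the same highest compartment. The summed level of 5 of them (Ibsp, Sp7, Bglap, Spp1 and Runx2) was 290 to 423 RPKM in the posterior nasal libraries and 15.9 to 139 RPKM in every other library. Over the 25 libraries, log2 levels of Nog and of this sum had Pearson r = 0.64 (Spearman 0.55), and Bmper and the sum had r = 0.58 (Spearman 0.70). The cartilage marker sum was 91.7 to 143 RPKM there and overlapped other libraries, which reached 109 RPKM. This sum had r = 0.58 (Spearman 0.65) with Nog and 0.41 (Spearman 0.58) with Bmper. Bmper also had r = 0.60 (Spearman 0.34) with the skeletal muscle sum and -0.60 (Spearman -0.36) with the palate mesenchyme sum. These points share compartments and runs, and the part of bone-forming or other cells in the Nog and Bmper levels was not tested.

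**Figure D2:**
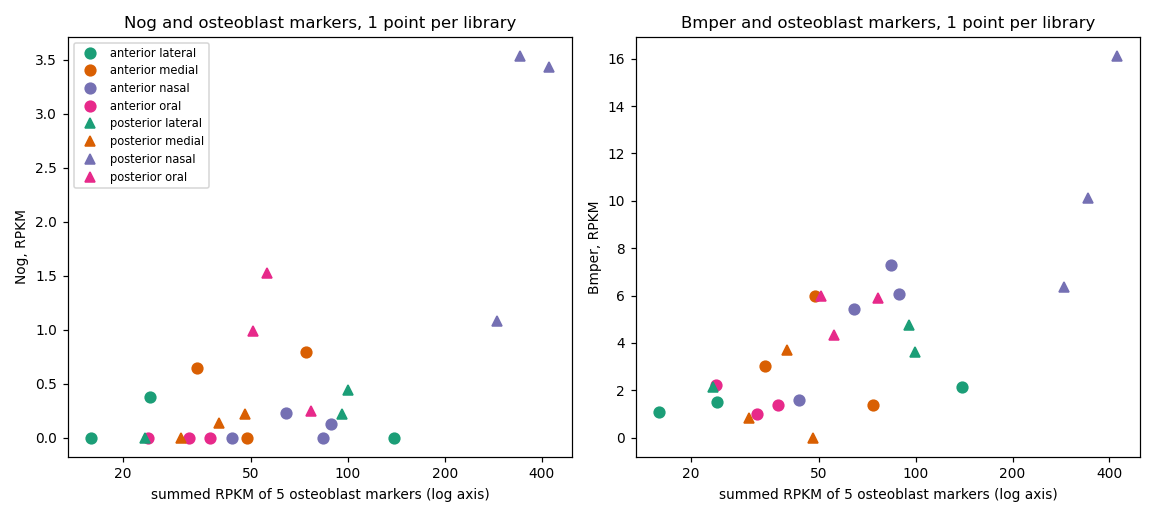
Nog (left) and Bmper (right) in RPKM against the summed RPKM of 5 osteoblast markers (log axis), with 1 point per library, circles for anterior and triangles for posterior. The 3 posterior nasal libraries lie alone to the right of 290 RPKM, with Nog at 1.08 to 3.53 and Bmper at 6.35 to 16.1 RPKM.

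Chrdl1 was highest in anterior oral and lowest in posterior medial. Anterior oral averaged 22.4 ± 19.1 RPKM (43.1, 18.7 and 5.48), and posterior medial averaged 0.246 RPKM (0.244, 0 and 0.493). The ratio of these means ran from 49.2 without anterior oral replicate 1 to 184 without posterior medial replicate 3. Anterior oral replicate 1 (43.1 RPKM) had the lowest depth of all libraries, at 1.64 M reads, and replicate 3 lay below every anterior lateral library. Anterior lateral gave 9.58, 9.15 and 8.05 RPKM, and posterior oral gave 5.9, 7.83 and 12.3 RPKM. Anterior nasal libraries lay at 5.71 to 9.91 RPKM. Posterior lateral gave 1.87, 9.55 and 2.73, posterior nasal 2.57, 3.45 and 6.07, and anterior medial 2.58, 4.12 and 1.18 RPKM. The medial compartments were thus the lowest in the anterior and in the posterior palate, and only anterior medial against posterior medial separated neighbours in the order.

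Grem1 was highest in posterior medial, where Chrdl1 was lowest. Posterior medial averaged 39.1 ± 12.6 RPKM (46.3, 46.5 and 24.5), and posterior nasal averaged 3.04 ± 2.75 RPKM (1.91, 6.17 and 1.03), a ratio of 12.9. The ratio ran from 9.67 without posterior nasal replicate 3 to 26.6 without posterior nasal replicate 2. Posterior lateral spread from 3.84 to 36.1 RPKM. The highest was replicate 1, the only library of its sequencing run and the deepest of its compartment, so run and library cannot be told apart. Anterior medial gave 15.1, 15.1 and 17.7 RPKM, and posterior oral gave 12.3, 10.8 and 12.6 RPKM. Anterior nasal libraries were at 13.5, 3.43, 8.11 and 19.8 RPKM, anterior lateral at 4.6, 8.94 and 8.05, and anterior oral at 0.372, 4.72 and 10.2 RPKM. Only anterior medial against posterior oral separated neighbours in the order, and the 0.372 RPKM of anterior oral replicate 1 was 1 read.

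Across the libraries Grem1 and Chrdl1 had Pearson r = -0.69 and Spearman rho = -0.69 (n = 25, log2 values), the most negative of the 21 member pairs. Grem1 and Sostdc1 had the most positive, r = 0.66 and rho = 0.55. By Pearson r the other pairs lay between -0.55 (Bmper and Twsg1) and 0.43 (Nog and Bmper, Chrdl1 and Bmper). Spearman rho was -0.48 for Bmper and Twsg1, 0.48 for Nog and Bmper and 0.11 for Chrdl1 and Bmper. Chrdl1 and Bmper were both at 0 in posterior medial replicate 2. Libraries of the same compartment and run share what sets their level, so these values describe the 25 libraries.

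**Figure D3:**
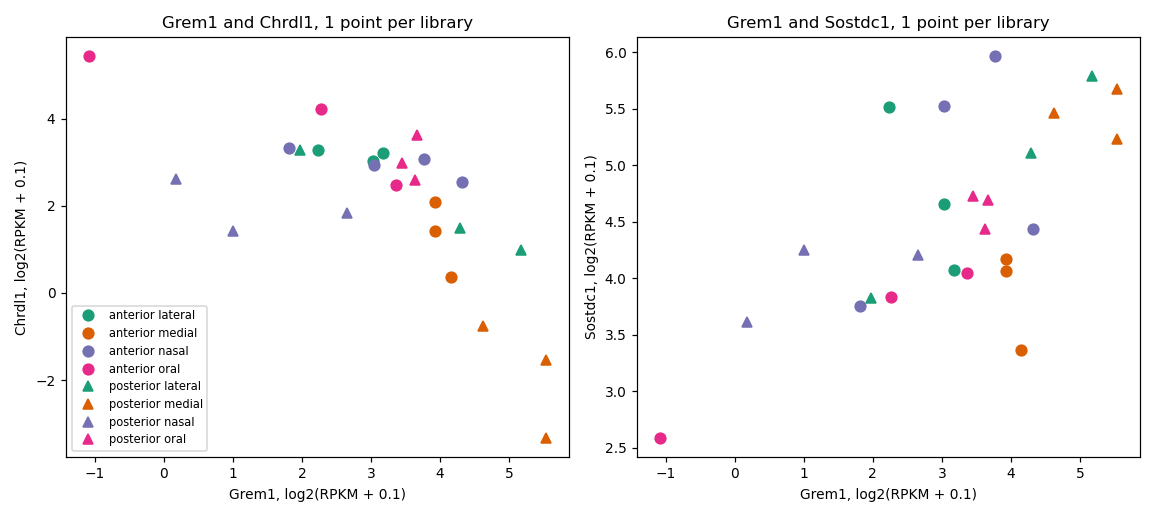
Log2(RPKM + 0.1) of Chrdl1 (left) and Sostdc1 (right) against Grem1, with 1 point per library, circles for anterior and triangles for posterior. Posterior medial libraries have the lowest Chrdl1 values and high Grem1 values, and anterior oral replicate 1 (Grem1 0.372 RPKM) is at the opposite end.

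Sostdc1 was also highest in posterior medial, at 44.2 ± 6.77 RPKM (51, 37.4 and 44.1). Anterior nasal averaged 35.8 RPKM with libraries from 13.4 to 62.3, and posterior lateral averaged 34.6 RPKM with libraries from 14.1 to 55.2. The highest posterior lateral library was again replicate 1, the only one of its run. Anterior lateral gave 45.5, 16.7 and 25.1 RPKM. Posterior oral gave 21.6, 26.4 and 25.7 RPKM, above the 18.9, 18.4 and 12.1 RPKM of posterior nasal without overlap. Anterior medial averaged 14.9 RPKM and anterior oral was lowest at 12.2 RPKM (5.92, 14.2 and 16.4).

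Twsg1 and Chrd gave no compartment that stood apart from its neighbours. Twsg1 means ran from 48.6 RPKM in posterior nasal to 75.3 RPKM in anterior medial, a ratio of 1.55, with 525 to 2119 reads in each library. Chrd was highest in anterior lateral, at 4.31, 3.84 and 3.99 RPKM, and lowest in posterior nasal, at 1.95, 1.43 and 1.26 RPKM, a ratio of means of 2.61. Read numbers for Chrd could not be recovered from its values.

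Of the comparisons between groups, posterior oral against posterior nasal gave the most members with a small unadjusted p. None of the 7 passed limma's adjusted threshold, against 1.21% of the 10610 genes tested, but 6 of 7 had an unadjusted p under 0.05, against 8.02%. In all, 4 of 7 members did not overlap between the groups, against 11.9% of all genes, with 3 higher in oral and 1 lower. Grem1 averaged 11.9 RPKM in oral and 3.04 in nasal (log2 fold change 2.31, SE 0.54, limma adjusted p = 0.120), and all oral libraries lay above all nasal ones. With 1 library left out, the limma adjusted p for Grem1 ran from 0.0113 (without posterior nasal replicate 2) to 0.35. Chrd averaged 3.67 and 1.55 RPKM (1.16, SE 0.30, limma adjusted p = 0.162), Chrdl1 8.67 and 4.03 RPKM (1.11, SE 0.38, adjusted p = 0.359) and Sostdc1 24.6 and 16.4 RPKM (0.60, SE 0.24, adjusted p = 0.550). Bmper went the other way, with 5.41 and 10.9 RPKM (-0.91, SE 0.34, limma adjusted p = 0.474), as did Nog (-1.54, SE 0.62, adjusted p = 0.543). Twsg1 averaged 60.5 and 48.6 RPKM with an interval of the log2 difference from -0.19 to 0.84. In both runs that held both compartments, Grem1, Chrd, Chrdl1, Twsg1 and Sostdc1 were higher in oral and Bmper was higher in nasal. Of 9 marker sums, 4 did not overlap between these compartments. The endothelial sum was 128 to 186 RPKM in oral and 56.8 to 85.3 RPKM in nasal, red cells 458 to 680 and 241 to 428 RPKM, and nerve and Schwann cells 24.1 to 36.3 and 9.04 to 20 RPKM, while osteoblast markers were 50.6 to 76.6 and 290 to 423 RPKM. Over the 25 libraries Chrd and the endothelial sum had r = 0.60 (Spearman 0.58). The part of these cells in the differences was not tested.

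Among the pathway genes, 2 of 15 ligands were lower in posterior oral, namely Bmp6 (4.35 and 18.7 RPKM, log2 fold change -2.13, limma adjusted p = 0.0292) and Gdf10 (10.6 and 42.0 RPKM, -1.96, adjusted p = 0.0153). Bmp4, a main ligand of the palate, averaged 42.1 and 14.1 RPKM (1.66, SE 0.32, limma adjusted p = 0.0566). No receptor, Smad, tolloid protease or response gene passed. A limma unadjusted p under 0.05 was found for 2 of 11 receptors and co-receptors, 2 of 3 proteases and 3 of 9 response genes. The share over all genes tested was 8.02%.

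In the anterior palate, the oral and nasal libraries overlapped for every member. No gene of 10708 passed limma's adjusted threshold (0%), and 2 of 7 members had an unadjusted p under 0.05, against 2.98% of all genes. Bmper averaged 1.54 RPKM in oral and 5.10 RPKM in nasal (log2 fold change -1.54, SE 0.53, limma adjusted p = 1.00), and Sostdc1 averaged 12.2 and 35.8 RPKM (-1.43, SE 0.59, adjusted p = 1.00). Grem1 averaged 5.10 and 11.2 RPKM with an interval of the log2 difference from -4.07 to 0.63, and Chrdl1 22.4 and 7.88 RPKM (-0.33 to 2.48). The interval was -1.32 to 0.65 for Chrd and -0.51 to 0.46 for Twsg1, and Nog had 0 reads in oral and 2 in nasal. No member separated the groups, against 3.67% of genes. In each of the 3 runs that held both compartments, Grem1, Bmper and Sostdc1 were lower in oral than in nasal. Same-numbered oral and nasal libraries had positive correlations of deviations here, as in some other comparisons, which does not show that the numbers pair samples. Blocking on the number changed no member's call. Of 9 marker sums, 3 did not overlap, with osteoblast at 24 to 37.3 RPKM in oral and 43.5 to 88.6 RPKM in nasal, cartilage at 19.7 to 48.8 and 57.4 to 101 RPKM and macrophages at 21.7 to 24.4 and 24.7 to 34.8 RPKM, and their part was not tested.

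Whether the oral-nasal difference itself differed between the anterior and posterior palate was tested as an interaction. No member passed limma's adjusted threshold, against 0.0349% of 11461 genes, and 3 of 7 had an unadjusted p under 0.05, against 3.39%. These were Grem1 (difference of log2 differences 4.02, SE 1.36, limma adjusted p = 0.876), Sostdc1 (2.02, SE 0.72, adjusted p = 0.976) and Chrd (1.49, SE 0.57, adjusted p = 1.00), all in the direction of posterior oral.

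In the anterior palate, Grem1, Chrd and Chrdl1 did not overlap between the lateral and medial compartments, and none passed. Grem1 averaged 7.20 RPKM in lateral and 16 RPKM in medial (log2 fold change -1.19, SE 0.25, limma adjusted p = 0.0593). Chrdl1 averaged 8.93 and 2.62 RPKM (1.89, SE 0.39, limma adjusted p = 0.0583). No member passed limma's adjusted threshold, against 2.47% of 10456 genes, and 3 of 7 had an unadjusted p under 0.05, against 14.9%. The 3 of 7 members without overlap stood against 21.3% of genes. Chrdl1 passed without anterior medial replicate 2 (adjusted p = 0.0313) or replicate 3 (adjusted p = 0.0354). With another library left out, its limma adjusted p reached 0.19. Sostdc1 averaged 29.1 and 14.9 RPKM (0.88, SE 0.37, limma adjusted p = 0.334), and Chrd averaged 4.04 and 2.65 RPKM (0.70, SE 0.33, adjusted p = 0.383). With sequencing run added to a model of all 25 libraries, the Grem1 difference changed sign to 1.01, that of Chrdl1 was 1.04, and run and compartment cannot be told apart here. The interval of the log2 difference was -3.47 to 0.93 for Nog, -2.05 to 0.24 for Bmper (1.58 and 3.45 RPKM) and -0.60 to 0.12 for Twsg1 (63.6 and 75.3 RPKM).

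Several pathway genes passed in the same comparison. The ligand Bmp2 was lower in lateral (17.0 and 32.9 RPKM, log2 fold change -0.94, limma adjusted p = 0.0101) and the ligand Bmp3 higher (12.1 and 2.48 RPKM, 2.38, adjusted p = 0.0273). Of 9 response genes, Id4 (8.47 and 19.2 RPKM, -1.17, limma adjusted p = 0.00514) and Id1 (49.3 and 95.4 RPKM, -0.94, adjusted p = 0.0300) were lower and Msx1 (12.4 and 3.58 RPKM, 1.90, adjusted p = 0.0351) was higher. Smad9 was lower as well (2.58 and 7.64 RPKM, -1.54, limma adjusted p = 0.0125), and no receptor or tolloid protease passed. A limma unadjusted p under 0.05 was found for 0 of 11 receptors and co-receptors and 1 of 3 proteases. It was also found for 6 of 15 ligands, 2 of 4 Smads and 7 of 9 response genes, against 14.9% of all genes tested. The epithelial marker sum was 57.3 to 118 RPKM in anterior lateral and 120 to 188 RPKM in anterior medial. The cartilage sum was 20.7 to 21.6 and 67.6 to 109 RPKM, nerve and Schwann cells 19.3 to 22.6 and 31.2 to 51.5 RPKM, and endothelium 147 to 170 and 102 to 126 RPKM. These 4 of 9 marker sums did not overlap, and their part in the member and pathway values was not tested.

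In the posterior palate, Chrdl1 was the only member without overlap between lateral and medial. It averaged 4.71 RPKM in lateral and 0.246 RPKM in medial (log2 fold change 3.79, SE 0.85, unadjusted p = 0.00387 and adjusted p = 0.957 by limma). The medial libraries held 9, 0 and 12.88 reads of it, where a part of a read counts by the bases inside exons. No gene of 10351 passed limma's adjusted threshold (0%), 1 of 7 members had an unadjusted p under 0.05, against 1.56%, and 1 of 7 did not overlap, against 6.62%. The mean of Grem1 was 19.8 RPKM in lateral and 39.1 RPKM in medial, with an interval of the log2 difference from -3.43 to 0.59. For Sostdc1 the interval was -1.81 to 0.72 and for Bmper -0.79 to 5.34. It was -1.38 to 2.18 for Nog, -0.71 to 1.93 for Chrd (3.14 and 2.33 RPKM) and -0.72 to 0.51 for Twsg1 (61.1 and 66.0 RPKM). Of 9 marker sums, 3 did not overlap. The skeletal muscle sum was 25.1 to 165 RPKM in lateral and 0.297 to 18.7 RPKM in medial, epithelium 32.4 to 53.6 and 80.1 to 252 RPKM, and macrophages 23.6 to 29.4 and 33.8 to 44.8 RPKM. Chrdl1 and the muscle sum had r = 0.54 (Spearman 0.33) over the 25 libraries, and the part of these cells was not tested. The interaction of the lateral-medial difference with anterior-posterior position gave no member with a limma unadjusted p under 0.05 (0 of 7, against 3.36% of genes; 0 of 7 by adjusted p, against 0.00900%).

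**Figure D4:**
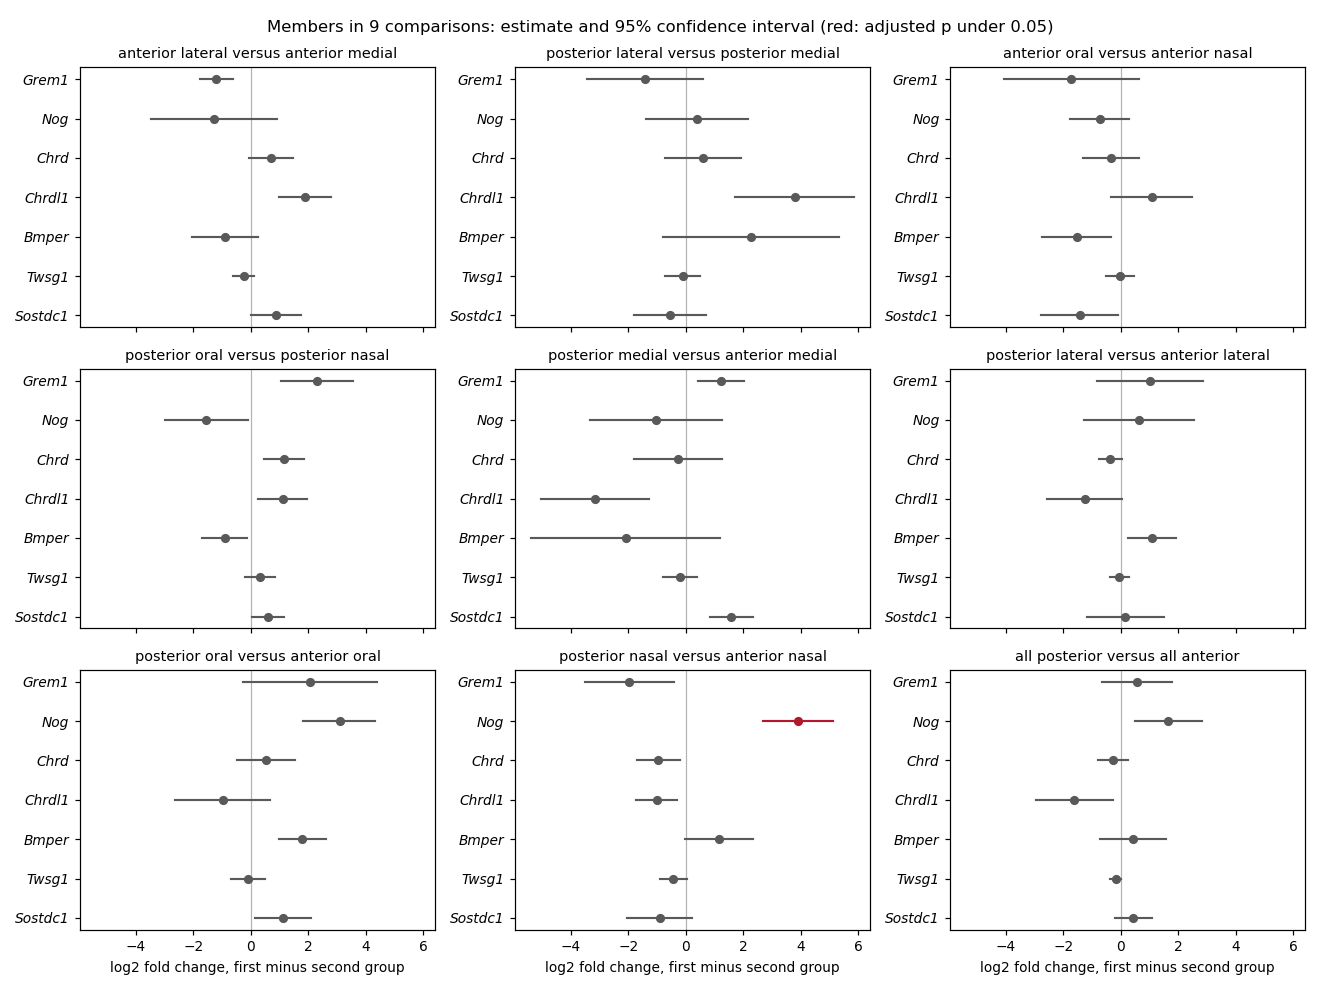
Log2 fold changes on log2(RPKM + 0.1), first group minus second, with 95% confidence intervals from limma for the 7 antagonists in 9 comparisons. The only red interval is Nog in posterior nasal versus anterior nasal (3.90), the single member past an adjusted p of 0.05, and Twsg1 intervals are the narrowest.

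The nasal compartments held the only member to pass a test between 2 groups. Nog averaged 2.68 RPKM in posterior nasal and 0.0896 RPKM in anterior nasal, which has 0, 0, 1 and 1 reads (log2 fold change 3.90, SE 0.54, limma adjusted p = 0.00834). That is 1 of 7 members against 2.21% of 10653 genes, and Nog was higher in all 3 posterior libraries than in all 4 anterior ones. Nog itself fell short of the expression minimum (5 RPKM in 3 of the compared libraries) and was added to the genes tested. Its limma adjusted p was 0.0702 without posterior nasal replicate 1 and 0.0522 without replicate 3. With no expression minimum it was 0.0726, after quantile normalization 0.0507 and with a mean-variance trend 0.242. Over all these other settings it ran from 0.0102 to 0.75, the latter with sequencing run in a model of all libraries. In the run that held both compartments, posterior nasal had 3.43 RPKM and anterior nasal 0.128 RPKM. The osteoblast sum was 43.5 to 88.6 RPKM in anterior nasal and 290 to 423 RPKM in posterior nasal, and the epithelial sum was 95.9 to 181 and 48.1 to 86.6 RPKM. The part of these cells was not tested.

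Over all members, 4 of 7 had an unadjusted p under 0.05, against 18.7% of genes, and 3 of 7 did not overlap, against 20.4%. Chrdl1 averaged 4.03 and 7.88 RPKM (-1.01, SE 0.31, limma adjusted p = 0.147), Grem1 3.04 and 11.2 RPKM (-1.96, SE 0.69, adjusted p = 0.191) and Chrd 1.55 and 3.28 RPKM (-0.96, SE 0.33, adjusted p = 0.185). Bmper averaged 10.9 and 5.10 RPKM (1.17, SE 0.52, limma adjusted p = 0.273). Twsg1 averaged 48.6 and 65.0 RPKM (-0.43, SE 0.20, limma adjusted p = 0.297). For Sostdc1, at 16.4 and 35.8 RPKM, the interval of the log2 difference was -2.03 to 0.23. Of 15 ligands, Gdf10 (42.0 and 8.23 RPKM, 2.44, adjusted p = 0.0141) and Bmp6 (18.7 and 6.21 RPKM, 1.58, adjusted p = 0.0208) were higher in posterior nasal by limma. Bmp2 (13.8 and 30.2 RPKM, -1.12, limma adjusted p = 0.0208) and Gdf6 (1.77 and 5.47 RPKM, -1.60, adjusted p = 0.0217) were lower. None of 13 other secreted antagonists and modulators passed, though 5 of 13 had an unadjusted p under 0.05. No receptor, Smad, protease or response gene passed either, with an unadjusted p under 0.05 in 1 of 11, 1 of 4, 2 of 3 and 3 of 9 of them.

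Posterior oral against anterior oral separated 4 of 7 members without overlap, against 8.30% of genes. No member passed limma's adjusted threshold, against 0.179% of 10615 genes, and 3 of 7 had an unadjusted p under 0.05, against 3.59%. Nog averaged 0.918 RPKM in posterior oral, with no read in anterior oral (limma adjusted p = 0.149). Bmper averaged 5.41 and 1.54 RPKM (log2 fold change 1.80, SE 0.35, limma adjusted p = 0.203), Sostdc1 24.6 and 12.2 RPKM (1.12, SE 0.42, adjusted p = 0.858) and Grem1 11.9 and 5.10 RPKM (2.07, SE 1.00, adjusted p = 0.858). In the 1 shared run, with 1 library of each compartment, Bmper was 5.91 in posterior oral against 1.01 RPKM in anterior oral. Grem1 was 12.3 against 10.2, Sostdc1 21.6 against 16.4 and Nog 0.25 against 0 RPKM. Chrd (3.4 against 2.01 RPKM) and Chrdl1 (5.9 against 5.48 RPKM) were higher there too, and Twsg1 was lower. Over the alternative settings the Grem1 log2 fold change ran from 0.33 to 2.17. The interval of the log2 difference was -0.48 to 1.54 for Chrd (3.67 and 2.63 RPKM), -2.62 to 0.66 for Chrdl1 (8.67 and 22.4 RPKM) and -0.67 to 0.51 for Twsg1 (60.5 and 63.7 RPKM). Of 9 marker sums, 4 were higher in posterior oral without overlap. Osteoblast markers summed to 50.6 to 76.6 RPKM against 24 to 37.3 RPKM, cartilage to 65.5 to 109 against 19.7 to 48.8, red cells to 458 to 680 against 199 to 338 and macrophages to 34.4 to 40.2 against 21.7 to 24.4 RPKM. Their part in the differences was not tested.

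Sostdc1, Grem1 and Chrdl1 did not overlap between the posterior and anterior medial compartments, and none passed. Sostdc1 averaged 44.2 RPKM in posterior medial and 14.9 in anterior medial (log2 fold change 1.59, SE 0.31, limma adjusted p = 0.278), Grem1 39.1 and 16 RPKM (1.23, SE 0.33, adjusted p = 0.609) and Chrdl1 0.246 and 2.62 RPKM (-3.16, SE 0.77, adjusted p = 0.486). These 3 of 7 stood against 11.9% of genes without overlap, and 3 of 7 had an unadjusted p under 0.05, against 4.08%. No member passed limma's adjusted threshold, against 0.106% of 10388 genes. In the run that held 2 posterior and 3 anterior medial libraries the same 3 genes did not overlap, with Sostdc1 at 37.4 and 44.1 RPKM against 10.2 to 17.9 RPKM. No ligand passed, though 4 of 15 had an unadjusted p under 0.05. The interval of the log2 difference was -3.34 to 1.25 for Nog, -1.81 to 1.26 for Chrd (2.33 and 2.65 RPKM), -5.37 to 1.18 for Bmper (1.52 and 3.45 RPKM) and -0.78 to 0.40 for Twsg1 (66.0 and 75.3 RPKM). None of the marker sums (0 of 9) separated these groups.

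The lateral compartments gave the least. Bmper was the only member with an unadjusted p under 0.05 (1 of 7, against 11.6%), with 3.51 RPKM in posterior and 1.58 RPKM in anterior lateral (log2 fold change 1.08, SE 0.34, limma adjusted p = 0.277). Chrd, at 3.14 and 4.04 RPKM, was the only member without overlap (1 of 7, against 18.9%). No member passed limma's adjusted threshold, against 1.35% of 10480 genes. Chrdl1 averaged 4.71 and 8.93 RPKM (-1.26, SE 0.55, limma adjusted p = 0.450). With 1 library left out, its limma adjusted p ran from 0.0237 (without posterior lateral replicate 2) to 0.833. The interval of the log2 difference was -0.84 to 2.85 for Grem1 (19.8 and 7.20 RPKM), -1.29 to 2.54 for Nog, -0.39 to 0.29 for Twsg1 and -1.16 to 1.49 for Sostdc1 (34.6 and 29.1 RPKM). Of 9 marker sums, 4 did not overlap, with cartilage at 46.6 to 77.2 RPKM in posterior and 20.7 to 21.6 RPKM in anterior lateral, epithelium at 32.4 to 53.6 and 57.3 to 118, endothelium at 120 to 144 and 147 to 170 and nerve and Schwann cells at 9.27 to 14.9 and 19.3 to 22.6 RPKM. Their part was not tested. Other pathway genes passed in this comparison. Tsku, a secreted protein that binds BMPs and chordin, was lower (10.1 and 26.8 RPKM, -1.39, limma adjusted p = 0.0158), and so was Msx1 (0.443 and 12.4 RPKM, -5.02, adjusted p = 0.0349).

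With all 12 posterior libraries set against all 13 anterior libraries, no member passed limma's adjusted threshold, against 3.33% of 8640 genes, and none (0 of 7) separated the groups, against 0.266%. Without adjustment, 2 of 7 members had an unadjusted p under 0.05, against 15.4%. Nog averaged 0.984 and 0.167 RPKM (log2 fold change 1.65, SE 0.57, limma adjusted p = 0.126), with medians of 0.343 and 0 RPKM. Chrdl1 averaged 4.42 and 10.3 RPKM (-1.61, SE 0.65, limma adjusted p = 0.218). Twsg1 averaged 59.0 and 66.8 RPKM (-0.18, interval -0.37 to 0.00, limma adjusted p = 0.338). The interval was -0.67 to 1.79 for Grem1 (18.4 and 9.97 RPKM), -0.79 to 0.24 for Chrd, -0.74 to 1.58 for Bmper and -0.21 to 1.1 for Sostdc1 (29.9 and 24 RPKM). Of 13 other secreted antagonists and modulators, Vwc2 was lower in posterior libraries (1.64 and 3.18 RPKM, -1.15, limma adjusted p = 0.0337). Of the ligands Gdf10 (21.4 and 5.44 RPKM, 2.07, limma adjusted p = 0.00268) and Bmp3 (30.1 and 9.80 RPKM, 1.75, adjusted p = 0.00944) were higher and Bmp2 (14.4 and 24.8 RPKM, -0.73, adjusted p = 0.00389) lower. Of the response genes, Msx1 was lower (0.313 and 8.74 RPKM, -4.45, limma adjusted p = 9.03e-05) and Bambi, a decoy receptor, higher (5.0 and 2.75 RPKM, 0.86, adjusted p = 0.00135). The 9 comparisons share libraries and are not independent of each other.

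For each member with at least 5 RPKM in 3 libraries, the 3 genes of 11912 with the closest pattern were found by Pearson correlation of log2 values over the 25 libraries, as a description. Emilin2 (r = 0.87), Spred1 (0.84) and Cachd1 (0.81) were closest to Grem1, and Arhgap29 (0.90), Aldh1a2 (0.89), the retinoic acid synthesizing enzyme, and Kcnrg (0.86) to Chrdl1. Nqo1 (0.88), B3gat1 (0.86) and Grin3a (0.85) were closest to Bmper. Kera (0.79), Pcdh10 (0.78) and Prickle1 (0.77) were closest to Sostdc1, and Fibin (0.83), Irgm1 (0.80) and Wipf1 (0.77) to Twsg1. Nog and Chrd had too few values above 5 RPKM and were not ranked.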

How the data were processed

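The authors deposited 1 table of RPKM values for 37406 genes in 25 libraries, 15007 genes at 0 throughout, which GeneSpring computed from the 50-base single-end reads of amplified captured RNA. Duplicate reads and reads with more than 1 alignment had been removed, and the submitters' processing notes name TopHat and mm9. Removing duplicates can compress the values of abundant genes, and amplification adds noise to low ones. Depth was recovered from ratios of low values (275 of 276 agreed by way of another library), and the total was set by transcript lengths, with 53 of 453 genes matching a listed length against 8 at the next best total. Groups and replicate numbers were those of the sample labels. Each library's run (8 in all) was read off alignment names in the header of the study's supplementary table. The 7 members and the pathway and marker lists were chosen with earlier results of these data known.

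Log2(RPKM + 0.1) was compared with limma 3.58.1 in R 4.3.3 (lmFit and eBayes, Benjamini-Hochberg adjustment over all genes tested), and fold changes on this scale understate the change of low genes. Genes needed 5 RPKM in 3 of the compared libraries, or 10 RPKM in 6 for all posterior against all anterior, and the members and pathway genes were added whatever their level. Thus 3 to 5 of the 7 members passed the minimum themselves, and Nog never did. An adjusted p under 0.05 was taken as passing. The fit was also run on simulated data with independent normal noise and no effect of sequencing run. That check cannot bear on run effects or on genes with read counts near 0. The text names every member in each comparison, Bmp2, Bmp4, Bmp6 and Bmp7 where set beside a member, and up to 3 listed pathway genes a direction with the largest change among those that passed; 1 gene of this rule is not reported here. The sample labels give replicate numbers but do not say that these pair samples. In anterior oral against nasal, same-numbered libraries had positive correlations of deviations (0.24, 0.22 and 0.12). Only the pair numbered 1 shared a run, and differently numbered libraries were not compared, so these values cannot show pairing. All same-numbered pairs were also positive in posterior lateral against medial (0.22, 0.04 and 0.22) and in posterior against anterior medial (0.05, 0.02 and 0.12). The figures were drawn with matplotlib 3.10.9.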

Additional observations from a re-analysis of the deposited data

Results flagged for a closer look

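Among 22 named genes in anterior nasal, the only compartment of 4 libraries, replicate 1 stood apart for the ligand Bmp3, at 22.9 RPKM against 8.72, 6.81 and 8.74 RPKM in the others. Chance alone flags about 1 in 20 such groups. That library also had the most genes at 1 RPKM or more, 16720 against 11264 to 14603 in the others, at a depth of 2.16 M reads. The part of this in the Bmp3 value was not tested.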

How the results depend on the processing

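Members passing an adjusted p of 0.05 were counted again under each alternative. With a pseudocount of 1 the count was 2 in anterior lateral versus medial and 4 in the test over 8 compartments. With a pseudocount of 0.01 it was 1 in posterior versus anterior oral (Nog) and 1 over the 8 compartments. A mean-variance trend gave 2 in anterior lateral versus medial, 0 in posterior versus anterior nasal and 1 over the 8 compartments. Quantile normalization gave 1 in posterior versus anterior lateral (Bmper) and 0 in posterior versus anterior nasal, where no expression minimum also gave 0. A single fit of all 25 samples by compartment gave 1 (Chrdl1) in posterior lateral versus medial, 1 (Chrdl1) in posterior versus anterior medial and 2 (Nog and Chrdl1) in all posterior versus all anterior. With sequencing run in that fit the count was 0 in posterior versus anterior nasal and 0 over the 8 compartments. Over the 8 compartments quantile normalization gave Chrdl1 and Bmper in place of Chrdl1 and Nog. The cause of these changes was not tested. Leaving out 1 library gave 0 to 1 in anterior lateral versus medial, posterior oral versus nasal, posterior versus anterior lateral and posterior versus anterior nasal, and 1 to 3 over the 8 compartments. The signs that reversed were those of Grem1 in anterior lateral versus medial (1.01 with sequencing run in the fit) and of Chrdl1 in the medial-lateral contrast by anterior-posterior position (-0.10 after quantile normalization). A replicate block left the count of members that passed at 0 in all comparisons between 2 groups but posterior versus anterior nasal, where it was 1, so it changed no call. Leaving out posterior medial replicate 2 and anterior oral replicate 1 together, an alternative chosen after seeing the data, gave Nog and Chrdl1, as before, over the 8 compartments and 0 in all posterior versus all anterior. Depth limits Nog most, at 0 or 1 read in many libraries.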

Other observations

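The mix of the 7 antagonists, as a summed RPKM per library, was on average highest in posterior medial (135 to 164 RPKM) and lowest in posterior nasal (84.3 to 89.6 RPKM). Anterior nasal (up to 164 RPKM) and posterior lateral (up to 162 RPKM) overlapped posterior medial. In posterior medial, Grem1 and Sostdc1 together made up 50.8 to 59.1% of the summed RPKM, in posterior lateral 18.6 to 56.4% and in anterior oral 5.47 to 27.1%. Twsg1 alone made up 38.1 to 47.2% in posterior medial and 60.5 to 70.9% in anterior medial. Of the genes that receive the signal, 0 of 11 receptors and co-receptors varied over the 8 compartments by limma's adjusted p. Without adjustment, 2 of 11 had a limma p under 0.05, against 12.1% of all genes tested. Of 15 ligands 4 varied (Bmp2, Bmp3, Bmp5 and Gdf10), against 4.42% of all genes tested. Of 4 Smads Smad9 varied (limma adjusted p = 0.00486), and of 9 response genes Msx1 (adjusted p = 0.00742) and Bambi (adjusted p = 0.0159). The ligand Bmp4 reached 137 RPKM in posterior lateral replicate 1 and 132 RPKM in posterior medial replicate 1, against 27.4 to 44 RPKM in the other posterior lateral and medial libraries. Each of these high libraries was the only one of its sequencing run and the deepest of its compartment (5.93 and 5.45 M reads). Run and library cannot be told apart here.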
